A study of Arabidopsis thaliana with 3 samples.

Results

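The Casparian strip genes described here are CASP1, CASP2, CASP4, CASP5, MYB36, ESB1, GSO1 (also named SGN3), SGN1 and PER64, which are 9 of a list of 10 genes chosen by name and not by their RNA level. All 10 were found among the 33446 genes of the root RNA-seq table, 8 by locus identifier and 2 (MYB36 and GSO1) by symbol. The RNA came from roots of 14-day-old Arabidopsis thaliana seedlings of ecotype Col-0, grown on vertical agar plates in long days at 22 °C. All of them expressed the INTACT system, in which a tag on the nuclear envelope, driven by the constitutive 35S promoter, is used to purify nuclei. More than one transgenic line was available, and the sources used here do not say which line gave the RNA, how many plants were pooled, or whether the libraries came from separate cultures. The 3 libraries formed 1 group, with no other genotype, treatment, time or tissue to compare with, and their values were deposited as 1 column in RPKM, the reads on a gene divided by its length and by the size of the library. No value therefore carries a spread between replicates, and the errors given below are counting errors only. Whole roots were sequenced, so fewer endodermal cells and less RNA per endodermal cell cannot be told apart in any value.

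The endodermis is the innermost cortical layer of the root and surrounds the vascular tissue. Its cells lay down a belt of lignin in the walls they share with each other, the Casparian strip, which stops water and solutes from moving through the wall space between soil and stele. CASP proteins form a membrane platform that marks the belt, and a peroxidase (PER64) and a dirigent-like protein (ESB1) are needed on it for lignin to be built in place. MYB36 is the transcription factor that turns on these genes in differentiating endodermis. The receptor kinase GSO1 and the cytoplasmic kinase SGN1 form a surveillance pathway that drives lignin deposition until the belt is closed.

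Of the 10 genes, 9 had RPKM above 1, the level above which the study calls a gene expressed, beside 56.0% of all listed genes and 68.3% of the 26169 protein-coding genes. The exception was ESB1. The median of the 10 genes was 33.0 RPKM, against 2.21 RPKM over all listed genes and 10.5 RPKM over the genes above 1 RPKM. The latter value was exceeded by 8 of the 10 genes. The levels ran from 0.181 RPKM for ESB1 to 203 RPKM for CASP1. The 3 highest (CASP1, PER64 and CASP2) stood in the top 5% of all listed genes, and CASP4 in the top 10%.

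**Figure D1:**
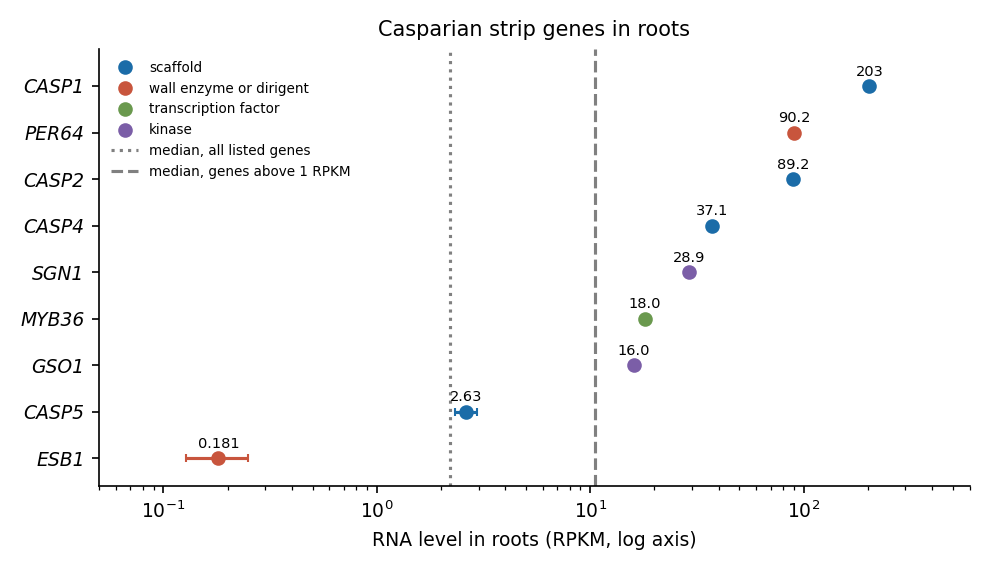
RNA level of 9 Casparian strip genes in roots (RPKM, log axis), ordered from the highest to the lowest and coloured by role, with the median of all listed genes (dotted line, 2.21 RPKM) and of genes above 1 RPKM (dashed line, 10.5 RPKM). Bars are 95% Poisson intervals of the reads behind each value and cover counting error only; they are narrower than the point except for CASP5 (2.33 to 2.96 RPKM) and ESB1 (0.128 to 0.250 RPKM), the lowest of them.

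Of the scaffold genes, CASP1 (AT2G36100, chromosome 2 of TAIR10.1 from 15159591 to 15160799, minus strand) was listed at 203 RPKM, rank 502 of 33446. CASP2 (AT3G11550, chromosome 3 from 3638178 to 3639348, plus strand) was listed at 89.2 RPKM, and CASP4 (AT5G06200, chromosome 5 from 1877134 to 1878324, plus strand) at 37.1 RPKM. CASP5 (AT5G15290, chromosome 5 from 4967011 to 4968092, plus strand) was far lower, at 2.63 RPKM, rank 16129. CASP1 was thus 2.28 times CASP2, 5.47 times CASP4 and 77.3 times CASP5, and CASP4 was 14.1 times CASP5. Each of these steps was larger than the counting error of its genes, which was 0.678% for CASP1 (about 21735 reads at its annotated length) and 6.0% for CASP5 (about 278 reads). Whether they are larger than the variation between plants was not tested.

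These CASP genes were chosen by the name of the same protein family, and they share a build. Each has 3 exons and a coding sequence of 564 to 621 bp, which encodes 187 (CASP5) to 206 (CASP1) amino acids. Over the coding sequence, CASP2 and CASP4 were the closest pair, with 80.6% identical aligned bases, while the other 5 pairs had 61.7% to 67.0%. The pair closest in sequence was not the closest in level. CASP2 was 2.40 times CASP4, whereas CASP1, with 67.0% identity to CASP2, was 2.28 times CASP2. The coding stretch that follows, 61 bases long like a sequencing read, is shown because it holds the longest run shared by any pair of these genes, 20 bases, in capitals. It lies at chr3:3638389-3638449 for CASP2 and chr5:1877454-1877514 for CASP4, both on the plus strand of RefSeq's TAIR10.1, from which every sequence here was read.
CASP2: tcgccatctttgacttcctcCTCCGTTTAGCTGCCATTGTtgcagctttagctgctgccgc
CASP4: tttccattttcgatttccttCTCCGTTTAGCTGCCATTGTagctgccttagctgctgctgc
A read of 61 bases over this stretch contains differences between the genes on both sides of the shared run. Within the annotated exons of all 10 members, each of the stretches of 61 bases occurred once in the genome, counted on both strands. Reads of one CASP gene were therefore not identical to another place in the genome, apart from reads across exon junctions, which were not examined.

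The sequences just upstream of the annotated starts are shown for these scaffold genes because their levels differ by up to 77.3 times. Each is the 75 bases before the start, on the strand of the gene, with TATAAA, the core of the TATA box that positions the transcription machinery, in capitals where it occurs on either strand (TTTATA is the match on the other strand). They lie at chr2:15160800-15160874 (CASP1, minus strand), chr3:3638103-3638177 (CASP2), chr5:1877059-1877133 (CASP4) and chr5:4966936-4967010 (CASP5).
CASP1: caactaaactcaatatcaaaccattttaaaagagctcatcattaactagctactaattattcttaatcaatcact
CASP2: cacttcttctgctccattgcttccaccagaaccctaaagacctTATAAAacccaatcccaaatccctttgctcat
CASP4: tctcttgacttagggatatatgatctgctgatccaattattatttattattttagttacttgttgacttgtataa
CASP5: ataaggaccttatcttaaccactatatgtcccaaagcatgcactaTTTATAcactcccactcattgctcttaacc
In the window from 250 bases before to 50 bases after the start, 8 of the 10 members held TATAAA on either strand, beside 52.6% of 26168 protein-coding genes. The members without it were CASP1, the highest of the list, and CASP4. On the strand of the gene, the match began 32 bases before the start in CASP2 and 30 bases before it in PER64. Across all these genes the median level was 4.94 RPKM with the motif and 4.77 RPKM without it. AC elements are short motifs that MYB factors bind at lignin genes, and the forms searched on both strands were AC-I, written ACCTACC, then AC-II, written ACCAACC, and lastly AC-III, written ACCTAAC. At least one of them was found in the window of 2 members, CASP5 and SGN1, beside 7.33% of all these genes. A match is a description of the letters only.

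The genome holds 39 genes annotated in the protein family of the CASPs (UPF0497), and all were listed. Of these, 35 (89.7%) had RPKM above 1, beside 68.3% of all protein-coding genes. CASP1 ranked second of the 39, CASP2 ranked 5, CASP4 ranked 9 and CASP5 ranked 31. The first place was held by AT4G15610 with 347 RPKM, and AT5G44550 with 197 RPKM came after CASP1. The 34 genes of the family outside the numbered CASP genes had a median of 10.6 RPKM, below CASP1, CASP2 and CASP4 and above CASP5.

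**Figure D2:**
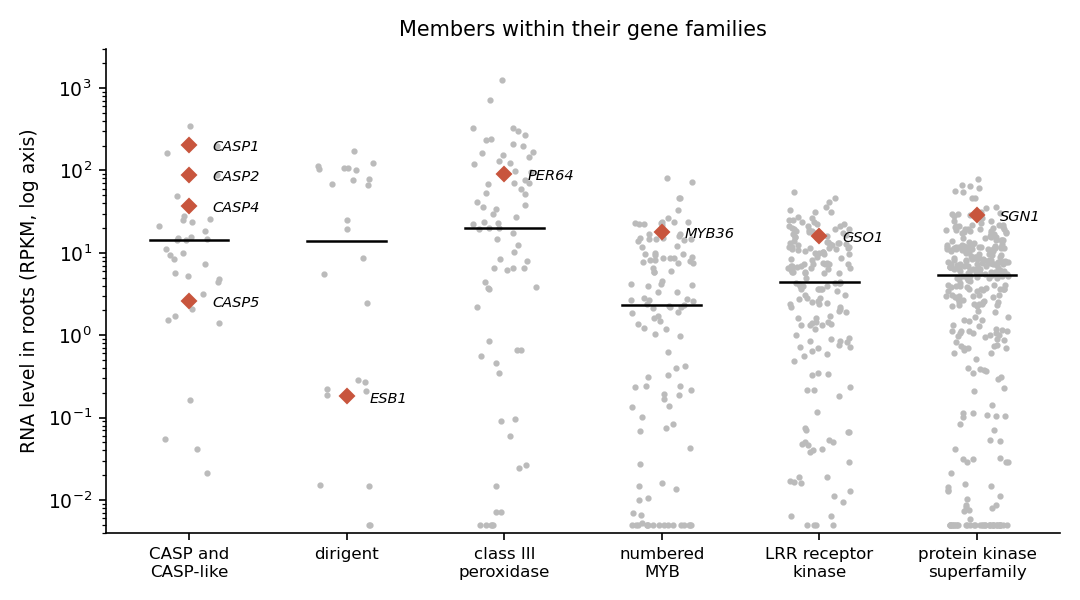
RNA level in roots (RPKM, log axis) of the listed genes in the 6 families or annotation classes to which the members belong. Red diamonds are the 9 Casparian strip genes, grey points the other genes, black lines the median of each family; genes below the axis range, 0 included, are drawn at its foot. CASP5 and ESB1 are the only ones of the 9 below the median of their family.

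MYB36 (AT5G57620, chromosome 5 from 23334767 to 23336632, plus strand), the transcription factor of the list, was listed at 18.0 RPKM, rank 6372. It ranked 15 of 117 numbered MYB genes, whose median was 2.31 RPKM and whose highest member was MYB34 with 80.8 RPKM. MYB36 was therefore among the higher genes of its class, yet lower than CASP1, CASP2 and CASP4. CASP1 was 11.3 times MYB36. Among the relatives of MYB36 chosen for the list, which does not hold all of them, MYB68 was listed at 23.3 RPKM. This was 1.29 times MYB36, and MYB84 (RAX3) was at 5.79 RPKM.

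The factors that act before MYB36 in the ground tissue lay in the same range or lower. SHR, which is made in the stele and moves into the endodermis, was listed at 14.9 RPKM, and its partner SCR at 11.4 RPKM. The zinc finger proteins JKD and MGP, which work with them, were listed at 13.8 and 6.75 RPKM. SCL3, a GRAS protein of the endodermis, was at 12.7 RPKM. In the whole list of upstream factors and MYB36 relatives, 9 of 9 usable genes were above 1 RPKM, beside 68.3% of all protein-coding genes. Their median was 11.4 RPKM and their range 2.74 to 23.3 RPKM. NUC was left out because its name is shared by another gene.

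Of the kinases, SGN1 (AT1G61590, chromosome 1 from 22723368 to 22726190, minus strand) was listed at 28.9 RPKM and GSO1 (AT4G20140, chromosome 4 from 10883921 to 10888270, plus strand) at 16.0 RPKM. SGN1 was thus 1.81 times GSO1 per length, although the longer GSO1 gathered more reads, about 8098 against 6042. SGN1 ranked 15 of 326 genes annotated as protein kinase superfamily. GSO1 ranked 31 of 179 genes whose annotated product names a leucine-rich repeat kinase, a class that does not hold all such kinases. The median of the 179 was 4.37 RPKM. The paralog GSO2, which acts with GSO1 in the embryo, was listed at 2.79 RPKM, and GSO1 was 5.74 times as high. An exon of AT4G20150, on the other strand and listed at 314 RPKM, covers 337 of the 4274 exon bases of GSO1. If none of the reads counted for GSO1 came from those bases, its level over the remaining 3937 bases would be 17.4 RPKM. The part of the shared bases in the value was not tested.

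The other genes of this signalling step, from a list of 6, were all above 1 RPKM, beside 68.3% of all protein-coding genes. Their median was 19.7 RPKM. The NADPH oxidases RBOHD and RBOHF, which make the superoxide used for lignin polymerization, were listed at 34.9 and 21.3 RPKM. TPST, an enzyme that sulfates tyrosines of secreted peptides, was at 15.3 RPKM. The remaining pair, AT4G34600 and AT2G16385, carry no function in the annotation, which gives each as the closest match of the other. They were at 223 and 18.1 RPKM, a ratio of 12.3. AT4G34600 was the only gene of this list above CASP1.

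PER64 (AT5G42180, chromosome 5 from 16852628 to 16854224, plus strand), the peroxidase that localizes to the strip, was listed at 90.2 RPKM, rank 1305. It could not be told from CASP2 (89.2 RPKM), since their 95% counting intervals (88.7 to 91.7 and 87.5 to 90.9 RPKM) overlap. This was the only such pair of neighbours in the order of the 10 genes. The class III peroxidases were taken by the word peroxidase in the annotated product. This brought in OCP3 (6.55 RPKM), a gene named after a peroxidase rather than as one. Among the 73 listed genes so taken PER64 ranked 20. It was above their median of 19.9 RPKM but well below PRXR1, the highest, with 1240 RPKM. PER64 gave 1.44% of their summed RPKM. RCI3, another peroxidase on the list of wall enzymes, was 2.35 times PER64, at 212 RPKM, and AT5G66390 was 1.73 times PER64, at 156 RPKM. AT4G11290 was listed at 52.3 RPKM and AT1G44970 at 29.6 RPKM.

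All 12 wall enzyme genes of the list, peroxidases, laccases and a uclacyanin, were above 1 RPKM, beside 68.3% of all protein-coding genes. Their median was 31.1 RPKM. Laccases are copper enzymes that oxidize monolignols. LAC3 was the highest of them, with 43.8 RPKM, followed by LAC8 with 32.5 RPKM and LAC5 with 22.9 RPKM. LAC12, with 1.68 RPKM, was the lowest gene of the list. UCC1, a uclacyanin, one of the small copper proteins of the cell surface, was listed at 71.1 RPKM.

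ESB1 (AT2G28670, chromosome 2 from 12300265 to 12302358, minus strand) stood apart from the other 9 members. It was listed at 0.181 RPKM, with a 95% counting interval of 0.128 to 0.250 RPKM from about 37 reads, rank 21231 of 33446. The next lowest member, CASP5, was 14.5 times as high. Most dirigent genes on the same list were high. AT3G55230 was listed at 170 RPKM, the first of 26 dirigent genes, AT3G24020 at 112 RPKM, AT4G13580 at 79.7 RPKM and AT2G39430 at 76.7 RPKM. AT3G55230 was thus 936 times ESB1. ESB1 ranked 22 of the 26, and AT1G65870 and AT1G07730, also on the list, were as low, at 0.222 and 0.187 RPKM.

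ESB1 is also the only member whose exons lie mostly inside another gene. AT2G28671, a protein-coding gene of unknown function on the plus strand, extends from 12300203 to 12302036 as a single exon and covers 1459 of the 1731 exon bases of ESB1 (84.3%). It was listed at 0.0873 RPKM, about 19 reads. All 1311 coding bases of ESB1 fall in that exon, and 867 of them are coding in both genes. The stretch that follows shows what a read of 61 bases from this place looks like. It lies at chr2:12301655-12301715 and is coding for ESB1 on the minus strand, as written, and for AT2G28671 on the other strand.
ESB1: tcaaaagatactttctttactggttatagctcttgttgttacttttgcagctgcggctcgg
A read with this sequence belongs to either gene unless its strand is used, and the sources used here do not say whether the counting used strand or what was done with reads on 2 genes. Outside the shared bases, ESB1 has a first exon of 272 bases. If all of its counted reads came from there, they would correspond to 1.16 RPKM over that exon. In the other 9 members, 0 to 7.88% of the exon bases were shared with another listed gene.

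**Figure D3:**
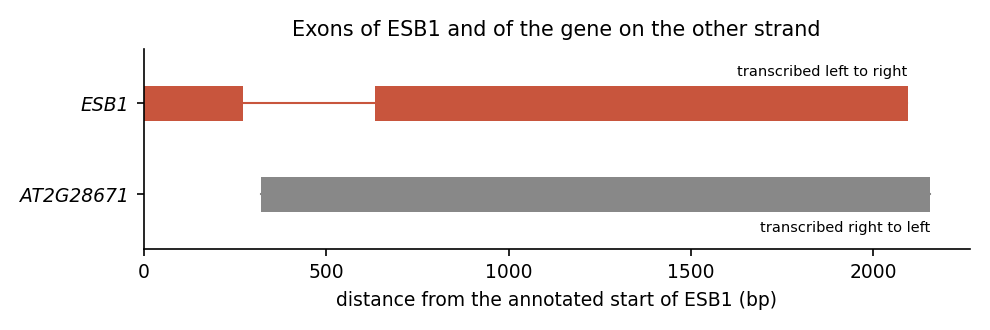
Exons (bars) of ESB1 and of AT2G28671 on the other strand, drawn to scale against the distance in bp from the annotated start of ESB1. The long exon of ESB1 lies wholly within the exon of AT2G28671, and the first exon of 272 bases lies outside it.

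The level and the exon overlap of the other dirigent genes, and of all protein-coding genes, are set beside those of ESB1. In 3 of the 26 dirigent genes more than 50% of the exon bases were shared with another listed gene, namely ESB1, AT1G07730 (99.4%) and AT5G49040 (92.4%, 0.0146 RPKM), and 0 of these 3 were above 1 RPKM. Of the remaining 23 genes, 16 were above 1 RPKM, with a median of 24.9 RPKM, and AT1G65870 was among those that were not, although at most 11.8% of the exon bases of any of the 23 were shared. AT1G07730 and AT5G49040 share their bases with genes on the same strand, AT1G07740 (1.17 RPKM) and AT5G49030 (3.27 RPKM). Across the table, the 275 protein-coding genes with more than 50% and up to 90% of their exon bases shared reached 1 RPKM in 45.1% of cases, and their median was 0.533 RPKM. The 19868 genes without shared bases had a median of 4.29 RPKM, with 65.1% above 1 RPKM. A value below that of ESB1 was found for 37.1% of the former and 27.1% of the latter. Genes sharing up to 50% were not low, with a median of 7.24 RPKM. The part of the overlap in the level of ESB1 was not tested.

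**Figure D4:**
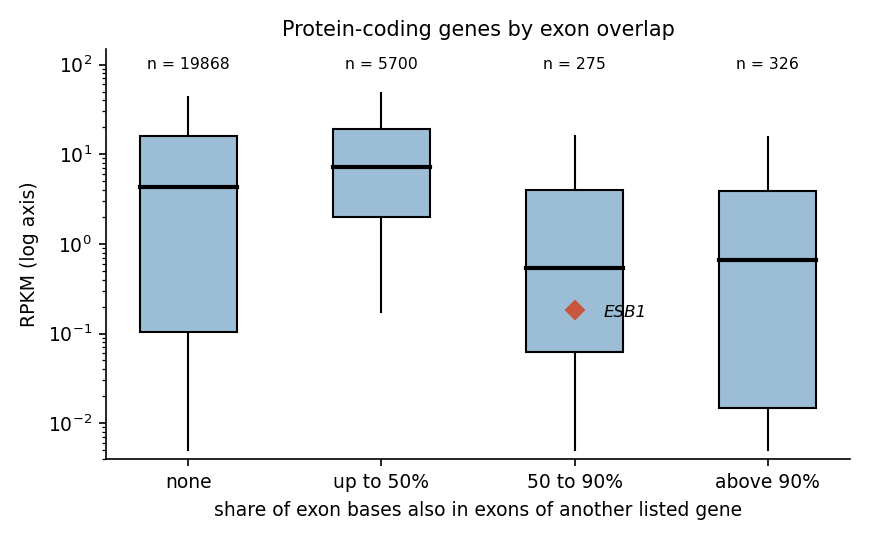
RPKM (log axis) of protein-coding genes, grouped by the share of their exon bases that also lie in exons of another listed gene. Boxes are quartiles with the median as a line, whiskers the 10th and 90th percentiles (cut at the foot of the axis where they reach 0), and the red diamond is ESB1, which lies below the median of 0.533 RPKM of its group.

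The genes beside the members on the chromosomes were mostly lower. Of the 20 nearest listed genes on either side that did not overlap a member, 16 were lower than that member. The median of the 20 was 4.31 RPKM, beside 4.85 RPKM over all protein-coding genes. Since 9 of the 10 members lay above the median of all listed genes, most genes are lower than these members wherever they lie. The share for genes elsewhere was not computed, so the count says nothing particular about neighbours. AT2G36110, 902 bp from CASP1, was listed at 0.00865 RPKM, and AT5G42170, 406 bp from PER64, was listed at 0. The exceptions were AT5G57625, 1199 bp from MYB36, with 127 RPKM, AT5G15280 beside CASP5 with 3.01 RPKM, and both neighbours of ESB1, with 22.2 and 0.377 RPKM.

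Further lists of genes that serve the same cell layer or the same polymer were set beside the members. The list of suberin genes, whose products coat endodermal cells at a later stage, held 10 usable genes, with FAR1 left out. All 10 of these were above 1 RPKM, beside 68.3% of all protein-coding genes, and their median was 35.1 RPKM. The highest was CYP86A1, a fatty acid hydroxylase, with 127 RPKM. The lowest, the transporter gene ABCG2 with 2.94 RPKM, shares 95.3% of its exon bases with another gene. In the list of monolignol genes, which make the building blocks of lignin in the xylem as well as in the endodermis, 14 of 14 genes were above 1 RPKM. Their median was 133 RPKM, and the highest was CCoAOMT1 with 752 RPKM. The median of the Casparian strip genes (33.0 RPKM) was below that of the monolignol list. It was also below that of the suberin list, as was the median of the 5 members outside the CASP genes, 18.0 RPKM. Without ESB1, a choice made after the data were seen, the median of the members was 37.1 RPKM, above that of the suberin list. These differences were not tested.

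**Figure D5:**
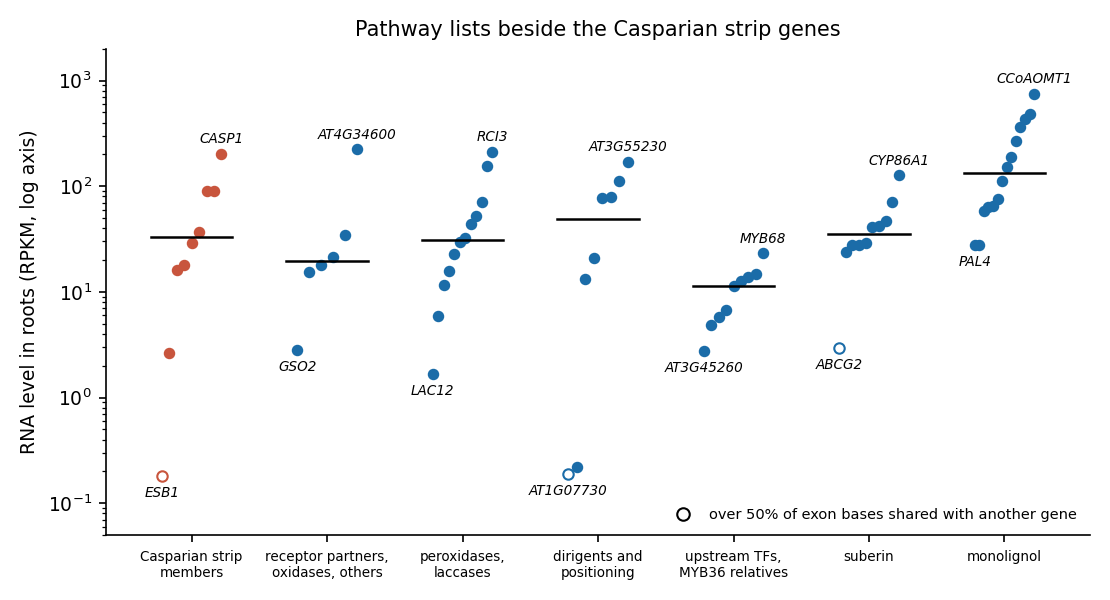
RNA level in roots (RPKM, log axis) of 9 Casparian strip genes (red) and of the other lists (blue), with the lowest and highest gene of each list named and the median of each whole list as a black line. Open circles are genes with more than 50% of their exon bases shared with another gene, among them ESB1 and AT1G07730, both under 0.2 RPKM.

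The usable markers of the root's cell types were all above 1 RPKM, in layers other than the endodermis as well. So were the 3 shoot markers, and 68.3% of all protein-coding genes. The root cap marker BRN2 could not be used. The list of endodermis markers held SCR, MGP and EDA4, from 6.75 RPKM (MGP) to 48.4 RPKM (EDA4), and also SHR, whose RNA is made in the stele and so does not mark the layer. The root hair markers ranged from 26.4 to 240 RPKM, and those of xylem from 1.58 to 34.3 RPKM. The phloem markers ranged from 4.92 to 44.0 RPKM, and the root cap markers from 7.41 to 10.1 RPKM. Cortex markers were lower, at 1.39 and 8.52 RPKM, and the markers of non-hair epidermis were at 2.19 and 22.6 RPKM. PHO1, a phosphate exporter of the stele, was listed at 110 RPKM. The photosynthesis genes RBCS1A, CAB1 and LHCB2.1, used as markers of shoot tissue, were at 14.1, 17.3 and 2.12 RPKM. All 3 were below CASP4 (37.1 RPKM), but RBCS1A and CAB1 were above SCR (11.4 RPKM), MGP and both cortex markers. CAB1 was also above the members GSO1 (16.0 RPKM), CASP5 and ESB1.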

How the data were processed

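RNA-seq of roots was performed on 3 libraries, sequenced as single-end reads of 61 bases. The authors aligned the reads to TAIR10, with TopHat2 according to the methods and STAR according to the submitters' processing notes, assigned them to genes with HT-seq, and obtained the deposited RPKM with edgeR. The versions of these tools, the annotation used, the strand setting and the way the 3 libraries were combined are not given in the sources used here.

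Names in the table were matched to TAIR10.1 by locus identifier, then symbol, then synonym. Of 33446 names, 32271 pointed to a single gene reached by a single name and were used. Positions, exon lengths, families and sequences are those of RefSeq's TAIR10.1, and the authors may have counted on other gene models. A gene's name is printed only where the table, the annotation or the member list gives it. The study's threshold, RPKM above 1, was used.

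The depth was read from the spacing of low values. Of 2821 values under 12 reads, 50.3% fell within 0.05 of a whole number of reads at a library size of about 118000000 reads, where 10% would by chance. This may be the pooled size or that of a single library. Reads per gene, and their exact 95% Poisson intervals, rest on this size and on TAIR10.1 lengths, and cover counting error only. The depth estimate and the count of repeated stretches were tested on simulated data. The depth was searched within a limited range of library sizes, and the simulated sizes lay within that range. Sizes outside it were not examined. There was no test between genes or lists, since the column has no replicates.

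One of the 10 members is not reported here, although counts and medians over the list include it. The members and lists were chosen with earlier results of these data known. Named genes are the members, the genes of the lists, the highest genes of each family, and neighbouring or overlapping genes. AT5G49040 was chosen after its value was seen. The family of SGN1 could only be taken as all genes annotated as protein kinase superfamily. The peroxidases, dirigent genes and leucine-rich repeat kinases were taken by words in the annotated product, so genes may be missing or wrongly included. Python 3.11.15 with numpy 2.4.6, pandas 2.3.3, scipy 1.17.1, Biopython 1.88 and matplotlib 3.10.9 was used. The alternatives were thresholds of 0.5 and 2 RPKM, rescaling to the fixed sum of TPM, coding length or no length, parts of the list, and a smaller library.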

Additional observations from a re-analysis of the deposited data

How the results depend on the processing

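No paired analysis was possible because the table holds a single column and a single condition, and for the same reason no library could be left out. The number of members above the threshold was 9 at 0.5 RPKM, at 2 RPKM and after rescaling to TPM. None of these settings addresses the bases that ESB1 shares with AT2G28671. If all of its reads came from its 272 unshared bases, ESB1 would be at 1.16 RPKM over them, above the threshold of 1 RPKM. The share of all listed genes above it was 59.6% at 0.5 RPKM, 50.9% at 2 RPKM and 68.3% among protein-coding genes. The median of the members was 54.3 TPM after rescaling, 18.0 RPKM without the CASP genes and 37.1 RPKM without ESB1, an alternative chosen after the data were seen. The median of the CASP genes alone is not reported here. Of the 45 pairs of members, 1 changed its order per kilobase of coding sequence, PER64 and CASP2, and 6 did so by reads without a length, each of them with GSO1 or SGN1, the genes with the longest coding sequences but for ESB1. With a library of 0.667 times the size, the counting errors of CASP5 and ESB1 were the largest, at 7.35% and 20.1%. The value of ESB1 rests on about 37 reads.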
